A study of Homo sapiens with 6 samples.

Results

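The mesenchymal and epithelial-to-mesenchymal transition (EMT) genes examined here were 39 genes that mark or drive a mesenchymal state, without the collagens, integrins and metalloproteinases. They were measured in ARPE-19 cells, an established line grown from human retinal pigment epithelium, by every probe set whose only gene symbol was one of the 39. All 39 genes were found, with 145 of the 49293 non-control probe sets and among 18132 genes with such a probe set. Cells in 6-well plates had received 2.5 µg per well of a GFP plasmid, the control, or of a plasmid with GFP and satellite alpha (SATalpha), the repeat DNA of human centromeres. Both groups were therefore transfected and both carried GFP, and untransfected cells were not analysed here. There were 3 GFP and 3 SATalpha arrays, and the comparison asked what satellite alpha changed beyond GFP alone.

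EMT is the program by which epithelial cells lose their junctions and keratins and take on the shape, contractility and matrix production of mesenchymal cells. Transcription factors of the SNAI, ZEB, TWIST and PRRX families drive it by repressing epithelial genes and activating mesenchymal ones. Transforming growth factor beta (TGF-beta) is its best known inducer. Retinal pigment epithelial cells that pass through EMT form contractile membranes on the retina in proliferative vitreoretinopathy, and smooth muscle actin is a usual marker of that change.

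Smooth muscle actin ACTA2 carried the largest difference by gene among the members. A classical route to its transcription runs through serum response factor (SRF), which binds CArG boxes, motifs with an A/T core between CC and GG. The smooth muscle actin gene is known for CArG boxes in which 1 core base is G or C. The 250 bases before a RefSeq start of ACTA2 (GRCh38.p14, chr10:88952774-88953023, minus strand) and before that of LOXL1 (chr15:73926212-73926461, plus strand) are shown because these members fell most by gene, 5′ to 3′ on the gene's strand, with such degenerate CArG boxes in capitals. The form of the box reads the same on both strands.
ACTA2: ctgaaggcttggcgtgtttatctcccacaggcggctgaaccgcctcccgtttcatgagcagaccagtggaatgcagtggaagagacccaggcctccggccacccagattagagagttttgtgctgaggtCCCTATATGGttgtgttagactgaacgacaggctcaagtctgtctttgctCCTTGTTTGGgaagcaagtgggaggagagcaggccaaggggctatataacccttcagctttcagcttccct
LOXL1: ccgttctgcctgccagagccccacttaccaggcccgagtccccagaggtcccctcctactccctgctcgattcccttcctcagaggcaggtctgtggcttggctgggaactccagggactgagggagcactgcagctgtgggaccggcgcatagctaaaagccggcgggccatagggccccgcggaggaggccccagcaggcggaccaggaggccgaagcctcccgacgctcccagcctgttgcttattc
ACTA2 held 2 such boxes, CCCTATATGG and CCTTGTTTGG, whose first bases lay 121 and 71 bases before the start. Each had 1 G or C in its core. The window before the other ACTA2 start in the table and the LOXL1 window held none. Of the 39 members 27 had an entry in the promoter table, with 42 starts, and 12 had none: SNAI1, SNAI2, TWIST1, FOXC2, CDH11, THY1, FAP, TAGLN, MYL9, LUM, DCN and LOXL2. CArG boxes with at most 1 G or C in the core lay before 7.04% of all 35116 RefSeq starts, and among these members before ACTA2 and TNC. Boxes with a pure A/T core, which are counted among these, lay before 1.16% of all starts and before 0 of the 42 member starts. The E-box CACCTG, a motif bound by SNAI and ZEB factors, was searched on both strands and lay before 17.5% of all starts. Among the members it lay before AXL, LOX, S100A4 and ZEB1. These matches describe letters in a window and were not tested as sites.

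The deposited values were log2 levels, and a difference is SATalpha minus GFP on that scale. Each gene was represented by its brightest probe set, by mean over the 6 arrays, and genes with a mean under 5.19 were not tested by gene. Of the members 26 were tested and 13 lay under that floor. A gene or probe set was called changed at a limma adjusted p under 0.05 over all 10879 tested genes or all 49293 probe sets. The labels do not say if arrays of 1 group came from separate wells or cultures. These p-values therefore measure only the scatter of arrays, which may be technical. No batch or scan date was given, and the level of the satellite alpha insert was not analysed here. Fewer cells of a kind and less RNA per cell cannot be told apart in such bulk samples.

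Array medians lay between 5.29 and 5.31, and correlations of arrays across probe sets were 0.996 to 0.997 inside a group and 0.995 to 0.996 across groups. The 3′ minus 5′ difference of ACTB control probe sets, a sign of RNA integrity, was 2.06 ± 0.068 with GFP and 2.01 ± 0.13 with SATalpha (SD, n = 3, two-sided exact permutation p = 0.6, with 0.1 the smallest possible). Of 14 measured markers of retinal pigment epithelium, RPE65, BEST1, RLBP1, LRAT, TYRP1 and TTR lay under the floor, whereas OTX2, MITF, KRT8 and KRT18 were above it. Among the markers of endothelium, leukocytes and skeletal muscle that were tested, 0 of 3, 0 of 1 and 0 of 2 passed by limma, with 1 of these at an unadjusted p under 0.05. The mean level of the measured leukocyte markers, for example, was 4.21 to 4.40 on the GFP arrays and 4.27 to 4.30 on the SATalpha arrays.

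The mesenchymal genes moved little and in both directions. By gene 3 rose (TWIST1, PRRX1 and TAGLN), 5 fell (ACTA2, LOXL1, ZEB2, CDH11 and TPM2) and 18 did not pass. That is 30.8% of the 26 tested members, beside 20.8% of all tested genes called in either direction, 7.72% higher and 13% lower. The median difference was -0.05 over the tested members and -0.02 over all tested genes. The median size was 0.07 over the members and 0.09 over all genes. In 10 of the 26 members the groups did not overlap, 3 with SATalpha above GFP and 7 with SATalpha below it. Over all tested genes 37.6% had groups that did not overlap, 14.4% above and 23.2% below. Of the 8 changed members ACTA2, LOXL1 and TAGLN remained past the threshold whichever array was left out. With GFP replicate 1 or GFP replicate 3 removed the count was 1 higher and 2 lower, and with GFP replicate 2 or SATalpha replicate 1 removed 3 were lower.

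**Figure D1:**
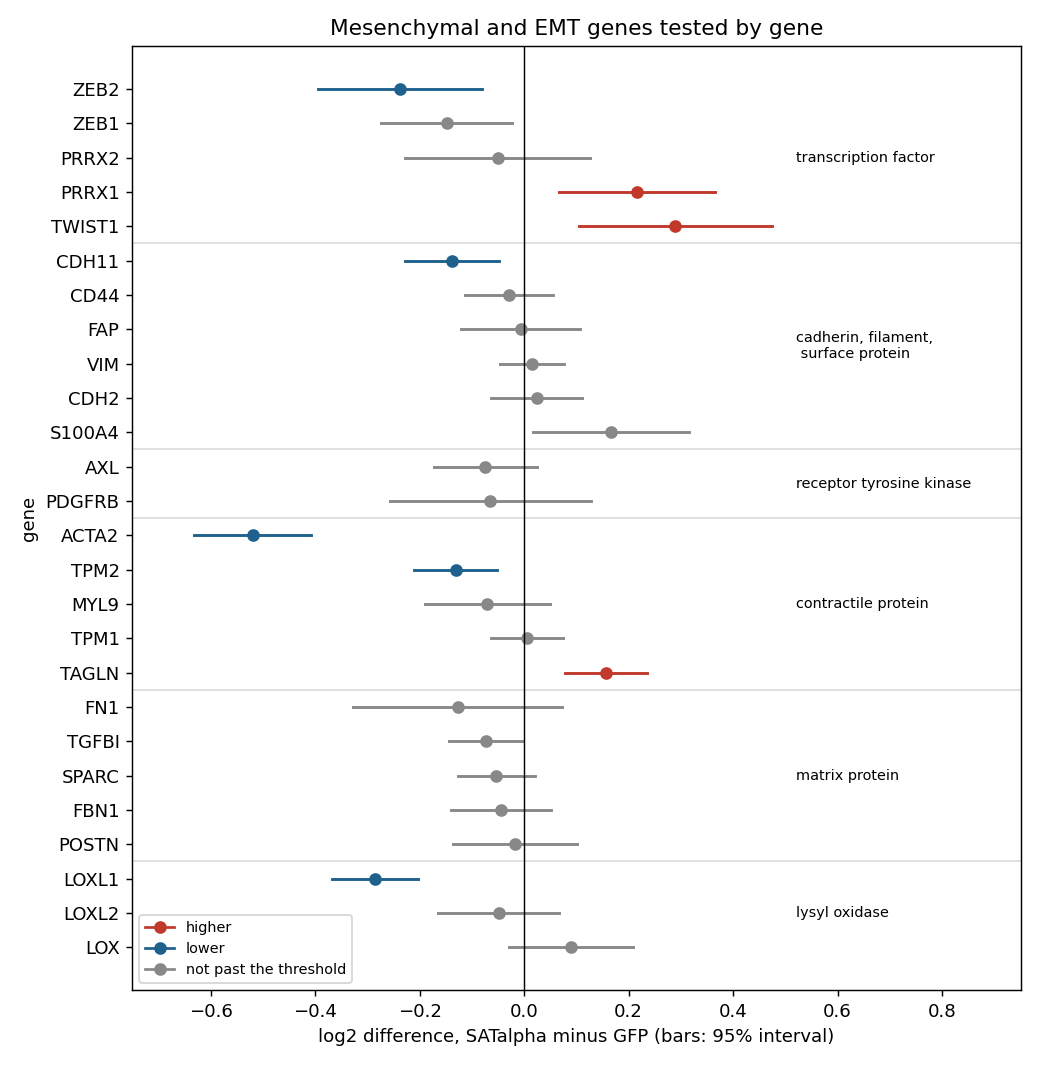
Log2 difference between SATalpha and GFP for the 26 tested members, grouped by role, with the 95% interval of each difference, not adjusted for the number of genes. Points are red for the 3 members that rose, blue for the 5 that fell and grey for the 18 that did not pass; ACTA2 lies farthest from 0 at -0.52.

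Contractile proteins held the largest change and moved in opposite directions. ACTA2, the actin of smooth muscle and myofibroblasts, stood at 8.90, 8.92 and 9.06 on the GFP arrays and at 8.45, 8.42 and 8.46 on the SATalpha arrays (probe set 11722352_s_at). Every SATalpha value lay below every GFP value, by a margin wider than the spread within either group. The mean went from 8.96 ± 0.090 to 8.44 ± 0.019 (SD, n = 3), a difference of -0.52 (SE 0.052, limma adjusted p = 1.40e-05). This was a fall of 1.43-fold. The ID of this probe set marks it as one that can match several transcripts. The other ACTA2 probe sets were dim, with every array under 3, and pointed the same way. 11760186_at differed by -0.38 (limma adjusted p = 0.0329 among probe sets) and 11758869_at by -0.30 (adjusted p = 0.0753), and in both the groups did not overlap. Removing GFP replicate 1 or 3 (-0.31 and -0.40) or any 1 SATalpha array (-0.37, -0.40 and -0.39) ended the call of 11760186_at.

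TAGLN, the actin-binding protein transgelin (SM22 alpha), rose in the same arrays. It stood at 10.46 on each GFP array and at 10.58, 10.60 and 10.66 on the SATalpha arrays. The GFP arrays thus hardly differed from one another, and the SATalpha arrays all lay above them. The difference was 0.16 (SE 0.037, limma adjusted p = 0.00823), a rise of 1.12-fold. Its 6 probe sets all had a positive difference and in all 6 the groups did not overlap. By probe set 4 of the 6 passed. The largest differences were 0.35 for 11754095_a_at (adjusted p = 0.00132), 0.33 for 11754096_x_at (adjusted p = 0.00214) and 0.24 for 11753627_x_at (adjusted p = 0.00386), and these 3 held whichever array was left out. The brightest probe set therefore gave the smallest estimate among those that passed. Tested among all probe sets, that brightest one no longer passed when any 1 GFP array was removed (0.16 in each case).

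Tropomyosins, which wind along actin filaments, differed among their own probe sets. TPM2 stood at 12.22, 12.16 and 12.22 with GFP and at 12.05, 12.02 and 12.14 with SATalpha, so its groups lay apart by a narrow margin. The difference by gene was -0.13 (SE 0.037, limma adjusted p = 0.0229). It did not pass once GFP replicate 1 or 3 (both -0.12) or SATalpha replicate 1 or 2 (-0.12 and -0.11) was removed. A dimmer TPM2 probe set, 11715273_at, went the other way, from 5.54 ± 0.19 to 5.91 ± 0.045 (SD, n = 3), by 0.37 (limma adjusted p = 0.0363 among probe sets). That rise did not pass once GFP replicate 1 or 2 (0.40 and 0.26) or any 1 SATalpha array (0.38, 0.38 and 0.34) was removed. Averaged over its 4 probe sets TPM2 differed by 0.07 and did not pass (limma adjusted p = 0.359), so its direction changed with the summary used.

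TPM1 showed no difference that passed in its brightest probe set, with 12.44, 12.47 and 12.46 against 12.43, 12.45 and 12.51, a difference of 0.01 (95% interval -0.06 to 0.07, limma adjusted p = 0.926). Its 9 probe sets nevertheless ran from -0.36 to 0.57, with 6 negative and 3 positive. The positive ones were the brightest and the dimmest, the latter with means of 5.51 and 4.57. Probe set 11742309_x_at stood at 9.75, 9.64 and 9.47 with GFP and at 9.35, 9.21 and 9.21 with SATalpha. Its fall of 0.36 (limma adjusted p = 0.00265 among probe sets) passed whichever array was removed. Probe set 11738892_a_at fell by 0.21 (adjusted p = 0.0145 over probe sets), but not past the threshold when GFP replicate 1 (-0.18) or SATalpha replicate 1 or 2 (-0.21 and -0.17) was removed. Probe set 11761642_a_at was dim, at 4.08, 4.44 and 4.32 with GFP and at 5.0, 4.69 and 4.86 with SATalpha. It rose by 0.57 (adjusted p = 0.00961), except that removing GFP replicate 1 (0.47) or SATalpha replicate 1 (0.50) ended the call. With probe sets of several possible targets dropped, TPM1 passed by gene as lower (-0.21, limma adjusted p = 0.00669). TPM1 is known for many splice forms, and the platform annotation ties these 3 probe sets to different transcript records. Which splice forms each one measures was not resolved here.

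The other contractile members did not pass. MYL9, a regulatory light chain of myosin, differed by -0.07 (95% interval -0.19 to 0.05, limma adjusted p = 0.410), and its other probe set by -0.15. CNN1, the actin-binding protein calponin, lay under the floor at 5.06, 4.99 and 4.93 with GFP and at 5.16, 5.28 and 5.25 with SATalpha. Its groups did not overlap, but its 4 probe sets did not pass by limma (differences 0.0021 to 0.26, 1 at an unadjusted p under 0.05).

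**Figure D2:**
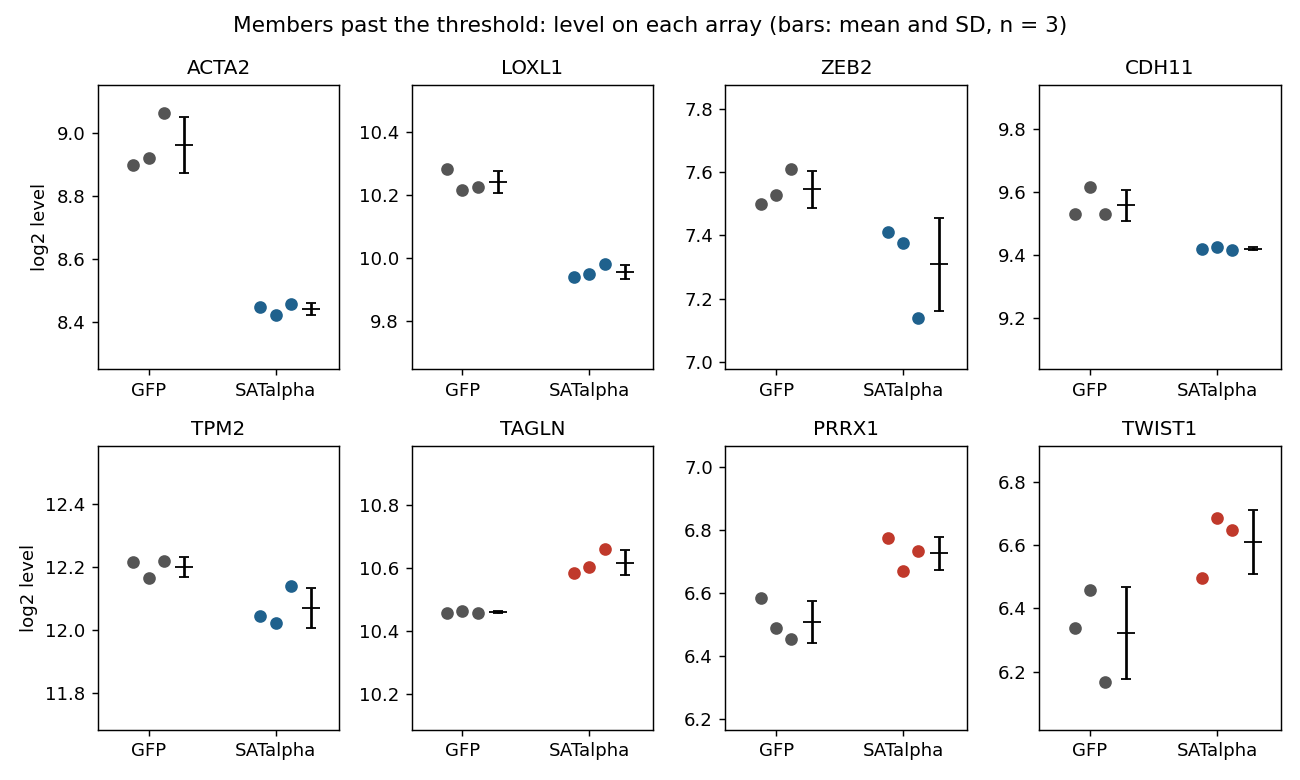
Log2 level on each of the 3 GFP and 3 SATalpha arrays for the 8 members past the threshold, with the mean and SD of each group beside the points and the same height of scale in each panel. The groups do not overlap in any of the 8 panels, and the gap is widest for ACTA2, from 8.96 to 8.44.

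SRF and other genes of the actin cytoskeleton were read beside these members. Of 15 tested genes of that list 2 rose and 4 fell, with a median difference of -0.07. Over all tested genes 7.72% were called higher and 13% lower. SRF itself differed by -0.11 (limma adjusted p = 0.418) and its coactivators MRTFA and MRTFB by -0.20 (adjusted p = 0.0736) and -0.04 (adjusted p = 0.713). The 3 other MRTFA probe sets ran from -0.09 to 0.21. The matricellular gene CCN1 rose by 0.38 (adjusted p = 6.06e-06), while TAGLN2, a relative of TAGLN, fell by 0.18 (adjusted p = 0.00132) and vinculin VCL by 0.18 (adjusted p = 0.00447). TPM4, a further tropomyosin, rose by 0.20 (adjusted p = 0.00725), but differed by -0.09 once probe sets with several possible targets were dropped. With probe sets averaged, CCN1 (0.39) and TAGLN2 (-0.11, adjusted p = 0.0495) still passed, whereas VCL (-0.10), TPM4 (0.06) and both other called genes of the list, which were lower, did not.

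Among the transcription factors TWIST1 and PRRX1 rose, ZEB2 fell, and SNAI1, SNAI2, TWIST2 and FOXC2 lay under the floor. TWIST1, a basic helix-loop-helix factor, stood at 6.34, 6.46 and 6.17 with GFP and at 6.50, 6.69 and 6.65 with SATalpha. The lowest SATalpha array was only just above the highest GFP array. The difference was 0.29 (SE 0.086, limma adjusted p = 0.0293), the largest rise by gene among the members, at 1.22-fold. It rests on 1 probe set, which did not pass among all probe sets (adjusted p = 0.0563). By gene it did not pass when GFP replicate 1 or 3 (0.30 and 0.21) or SATalpha replicate 2 (0.25) was removed.

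PRRX1, a homeobox factor of mesenchymal cells, stood at 6.58, 6.49 and 6.45 with GFP and at 6.77, 6.67 and 6.73 with SATalpha. Its groups did not overlap, and the difference was 0.22 (SE 0.069, limma adjusted p = 0.0400). Among all probe sets this one did not pass (limma adjusted p = 0.08). The call by gene ended with no filter on low values or with the replicate number as a block. Leaving out any 1 GFP array (0.25, 0.21 and 0.19) or SATalpha replicate 1 or 3 (0.19 and 0.21) ended the call. The second PRRX1 probe set was dimmer and moved further, from 4.23, 4.25 and 4.28 to 4.72, 4.63 and 4.69, by 0.42 (limma adjusted p = 0.0172 among probe sets). Removing GFP replicate 1 or 2 (0.41 and 0.42) or SATalpha replicate 1 (0.41) ended that call. PRRX2, its paralog, differed by -0.05 (95% interval -0.23 to 0.13, limma adjusted p = 0.713).

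ZEB2, a zinc finger repressor of E-cadherin, stood at 7.50, 7.53 and 7.61 with GFP and at 7.41, 7.37 and 7.14 with SATalpha, where SATalpha replicate 3 was the lowest. It fell by 0.24 (SE 0.073, limma adjusted p = 0.0342), and its second probe set had a like difference of -0.25 with overlapping groups. Neither passed among all probe sets (limma adjusted p = 0.0655 and 0.288). By gene the ZEB2 call ended once probe sets of several possible targets were dropped. Without SATalpha replicate 3 the difference was -0.15 and did not pass, as was also the case when any 1 GFP array was removed (-0.26, -0.25 and -0.21). ZEB1, its paralog, had non-overlapping groups in its brightest probe set, at 8.24, 8.14 and 8.18 against 8.07, 7.93 and 8.11. Its difference of -0.15 did not pass (limma adjusted p = 0.0891) except without SATalpha replicate 3 (-0.18, adjusted p = 0.0359). Of its 7 probe sets 6 had a negative difference and 0 passed, with 2 at an unadjusted p under 0.05.

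SNAI1 (Snail) stood at 4.75, 4.78 and 4.92 with GFP and at 5.02, 4.84 and 5.14 with SATalpha, and its groups overlapped. SNAI2 (Slug) had values of at most 2.56 on every array. The forkhead factor FOXC2 had a mean of 5.13 with GFP and 4.87 with SATalpha, also with overlap. TWIST2, the paralog of TWIST1, was dimmer, with means of 3.11 and 3.20. The probe sets of these 3 genes and both of TWIST2 did not pass.

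The classical mesenchymal markers showed no difference that passed. N-cadherin CDH2 stood at 10.65, 10.69 and 10.68 with GFP and at 10.69, 10.63 and 10.77 with SATalpha. The intermediate filament vimentin, VIM, stood at 13.54, 13.58 and 13.57 with GFP and at 13.59, 13.59 and 13.55 with SATalpha. In both the groups overlapped. The 95% interval of the difference was -0.06 to 0.11 for CDH2 (limma adjusted p = 0.725) and -0.045 to 0.076 for VIM (adjusted p = 0.751), and their second probe sets differed by 0.01 and -0.0023.

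CDH11, the cadherin of mesenchymal cells, did fall. It stood at 9.53, 9.61 and 9.53 with GFP and at 9.42 on each SATalpha array, a difference of -0.14 (SE 0.042, limma adjusted p = 0.0320). It did not pass when any 1 GFP array (-0.15, -0.11 and -0.15) or SATalpha replicate 1 or 2 (both -0.14) was removed, nor as an average over probe sets (-0.08). The differences of the 5 dimmer ones ran from -0.22 to 0.09, and among all probe sets 0 of the 6 passed, with 2 at an unadjusted p under 0.05. CD44, the hyaluronan receptor, was measured by 10 probe sets, all above the floor, with differences of -0.05 to 0.09. None passed by limma, and 0 had an unadjusted p under 0.05. S100A4, a calcium-binding protein of motile fibroblasts, stood at 7.36, 7.39 and 7.29 with GFP and at 7.55, 7.37 and 7.63 with SATalpha. Its groups overlapped through SATalpha replicate 2. It differed by 0.17 (limma adjusted p = 0.106), and passed without SATalpha replicate 2 (0.24, adjusted p = 0.0242). Its other probe sets differed by only 0.014 and 0.071, and the average of all 3, 0.08, did not pass. The fibroblast activation protease FAP differed by -0.0064 (95% interval -0.12 to 0.11, adjusted p = 0.950), and THY1, a surface glycoprotein of fibroblasts, lay under the floor with means of 3.42 and 3.37.

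The receptor tyrosine kinases also did not pass. AXL, the receptor for GAS6, stood at 11.18, 11.12 and 11.20 with GFP and at 11.02, 11.20 and 11.06 with SATalpha, a difference of -0.07 (limma adjusted p = 0.276). Its groups overlapped through SATalpha replicate 2, and without that array the difference was -0.13 and passed (adjusted p = 0.0385). PDGFRB, a receptor for platelet-derived growth factor, differed by -0.06 in its brightest probe set (95% interval -0.26 to 0.13, adjusted p = 0.661). A second PDGFRB probe set went from 5.54, 5.43 and 5.34 to 5.07, 5.19 and 5.11, without overlap, by -0.31 (limma adjusted p = 0.0572 among probe sets). PDGFRA, its relative, lay under the floor with means of 3.87 and 3.78 and 4 probe sets between -0.12 and 0.09.

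The lysyl oxidases, which cross-link collagen and elastin, split by member. LOXL1, which is needed for elastic fibres, stood at 10.28, 10.22 and 10.23 with GFP and at 9.94, 9.95 and 9.98 with SATalpha (probe set 11717551_a_at). The groups lay well apart, and the mean went from 10.24 ± 0.035 to 9.96 ± 0.023 (SD, n = 3). The difference was -0.29 (SE 0.039, limma adjusted p = 0.000186), a fall of 1.22-fold measured by its only probe set. LOX itself differed by 0.09 in its brightest probe set (95% interval -0.03 to 0.21, adjusted p = 0.273), where the groups overlapped.

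LOX was higher in 2 of its 5 other probe sets. Probe set 11728200_a_at stood at 9.25, 9.35 and 9.34 with GFP and at 9.54, 9.54 and 9.49 with SATalpha, a rise of 0.21 (limma adjusted p = 0.00935 among probe sets). It did not pass when replicate 1 of GFP (0.18) or of SATalpha (0.21) was removed. Probe set 11728199_s_at stood at 5.85, 5.66 and 5.66 with GFP and at 6.11, 6.03 and 6.09 with SATalpha. This rise of 0.35 (adjusted p = 0.0189 over probe sets) did not pass when GFP replicate 2 or 3 (both 0.32) or SATalpha replicate 1 (0.34) was removed. Averaged over its probe sets LOX differed by 0.14 and passed (limma adjusted p = 0.0317). LOXL2 differed by -0.05 (adjusted p = 0.569). A dimmer LOXL2 probe set, 11751288_a_at, at 6.81, 6.57 and 6.78 against 7.03, 6.91 and 7.01, rose by 0.26 (limma adjusted p = 0.0492 among probe sets), but lost the call whichever array was left out (0.19 to 0.31).

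Matrix proteins showed no call by gene. All 5 tested members, FN1, TGFBI, SPARC, FBN1 and POSTN, had a negative difference, from -0.13 to -0.02, and 0 of 5 passed by limma, with 1 at an unadjusted p under 0.05. Fibronectin FN1 stood at 10.00, 10.01 and 10.29 with GFP and at 9.99, 10.19 and 9.74 with SATalpha. Its groups overlapped widely, so this probe set could not show a small difference (-0.13, 95% interval -0.33 to 0.07, limma adjusted p = 0.368). Another FN1 probe set, 11739534_a_at, had less spread, with 8.71, 8.74 and 8.71 against 8.57, 8.47 and 8.56. This fall of 0.19 passed among probe sets (limma adjusted p = 0.0301). A further one, 11749460_x_at, went from 8.19, 8.17 and 8.2 to 7.99, 8.05 and 7.99 and fell by 0.18 (adjusted p = 0.0462). The first did not pass when any 1 GFP array (-0.19, -0.18 and -0.19) or SATalpha replicate 1 or 2 (-0.21 and -0.16) was removed, and the second when any 1 of the 6 arrays was (-0.20 to -0.17). With probe sets of several possible targets dropped, FN1 was represented by 11739534_a_at and passed by gene (-0.19, adjusted p = 0.0140).

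TGFBI, a matrix protein named for its induction by TGF-beta, stood at 12.22, 12.22 and 12.26 with GFP and at 12.12, 12.17 and 12.20 with SATalpha, a difference of -0.07 (limma adjusted p = 0.137). Its 4 probe sets all had negative differences. One of them, 11734548_a_at, went from 11.48, 11.46 and 11.47 to 11.33, 11.31 and 11.37, a fall of 0.13 (limma adjusted p = 0.0259 among probe sets). Removing any 1 GFP array (-0.13, -0.14 and -0.13) or SATalpha replicate 1 or 2 (-0.13 and -0.12) ended that call. With probe sets of several possible targets dropped, it stood for TGFBI and passed by gene (-0.13, adjusted p = 0.0154).

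SPARC (osteonectin), a collagen-binding glycoprotein, had 1 probe set that stood apart from its other 7. Probe set 11715603_s_at stood at 10.45, 10.61 and 10.60 with GFP and at 10.86, 10.90 and 10.87 with SATalpha. This rise of 0.33 (limma adjusted p = 0.000504 among probe sets) passed whichever array was removed. The brightest SPARC probe set, annotated to the same transcript record, stood at 11.71, 11.78 and 11.73 against 11.69, 11.73 and 11.65. It differed by -0.05 (95% interval -0.13 to 0.02, limma adjusted p = 0.308), and the 6 remaining ones by -0.04 to 0.07. The rise was therefore seen in 1 of 8 probe sets of the gene.

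Periostin, POSTN, a matrix protein of activated fibroblasts, stood at 8.25, 8.18 and 8.15 with GFP and at 8.18, 8.09 and 8.25 with SATalpha. Its 5 probe sets all had negative differences, from -0.21 to -0.02, and did not pass (limma adjusted p = 0.868 by gene). Fibrillin 1, FBN1, the scaffold of microfibrils, stood at 8.78 on each GFP array and at 8.71, 8.72 and 8.78 with SATalpha. Its groups touched through SATalpha replicate 3, and the difference of -0.04 did not pass (95% interval -0.14 to 0.05, limma adjusted p = 0.533).

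**Figure D3:**
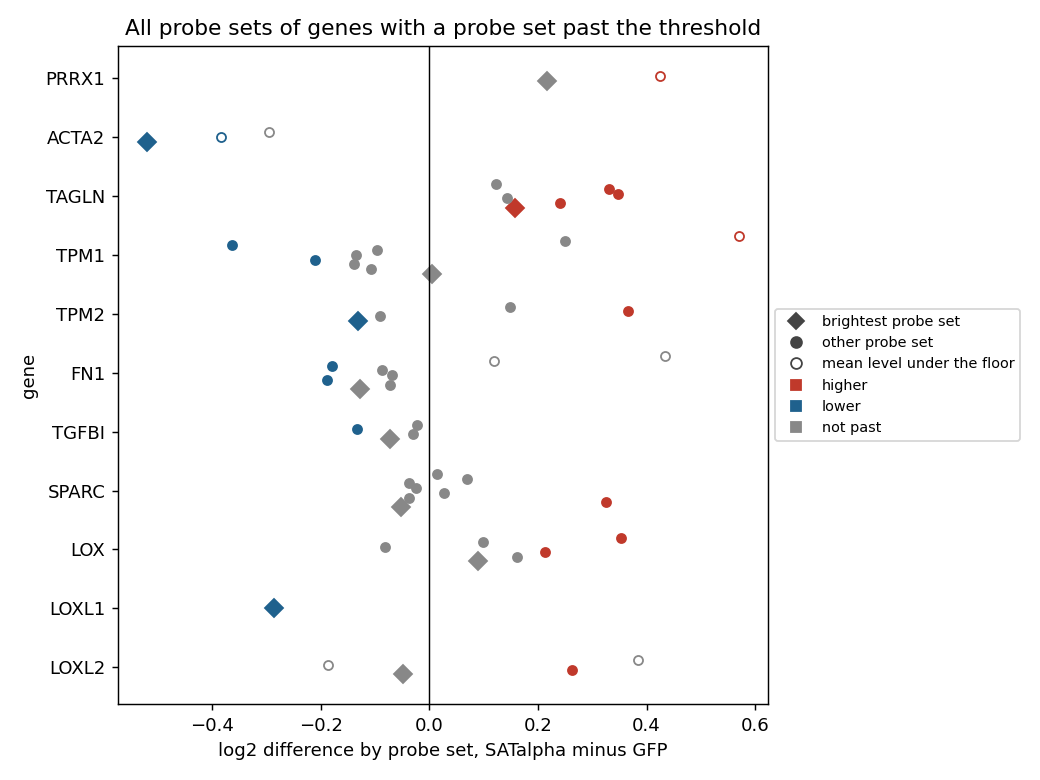
Log2 difference between SATalpha and GFP for every probe set of the 11 members with a probe set past the threshold; diamonds mark the brightest probe set, open circles those with a mean level under 5.19, and red and blue those that rose or fell. TAGLN and ACTA2 keep one direction in all their probe sets, while TPM1 runs from -0.36 to 0.57 and SPARC has 1 probe set at 0.33 apart from the rest.

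By probe set 11 of the 145 were higher and 9 lower, which is 13.8% beside 8.36% of all non-control probe sets (4.18% higher and 4.19% lower). They belonged to 11 genes, of which 6 (TPM1, FN1, TGFBI, SPARC, LOX and LOXL2) had not passed by gene. Calls in both directions occurred in TPM1 and TPM2. Above the floor 17 of 90 member probe sets passed (18.9%), and under it 3 of 55 (5.45%). The 8.36% covers dim probe sets as well. Shares over all probe sets on each side of the floor were not computed, so these percentages cannot show an excess among the members. Of the 20 calls 7 held whichever array was left out. With replicate 1 of either group removed 5 probe sets were higher and 3 lower, and with GFP replicate 2 removed 7 and 5. The count of lower ones was 4 with GFP replicate 3 removed and 5 with SATalpha replicate 2 removed.

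The 13 members under the floor were SNAI1, SNAI2, TWIST2, FOXC2, THY1, PDGFRA, CNN1, TNC, FBLN5, VCAN, LUM, DCN and GREM1. They include the proteoglycans versican, lumican and decorin, whose genes VCAN, LUM and DCN are fibroblast markers. VCAN had means of 3.71 with GFP and 3.49 with SATalpha and 9 probe sets between -0.28 and 0.12. LUM had means of 2.11 and 1.97, and DCN of 3.06 and 3.03, with overlapping groups in both. Their 38 probe sets gave 0 calls by limma, with 4 at an unadjusted p under 0.05 and a smallest adjusted p of 0.127. Differences ran from -0.34 to 0.28. Tenascin C, TNC, had the lowest of these, at 4.72, 4.87 and 4.86 with GFP and at 4.23, 4.48 and 4.73 with SATalpha, with overlap through SATalpha replicate 3. Without that array this probe set passed (-0.46, adjusted p = 0.0276 by limma over probe sets). GREM1 (gremlin), a secreted antagonist of bone morphogenetic proteins, had the highest, at 4.69, 4.69 and 4.66 against 4.79, 4.98 and 5.11, without overlap. FBLN5 (fibulin 5), which works with LOXL1 in elastic fibres, differed by -0.09 at a mean of 3.99 with GFP.

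TGF-beta pathway genes moved both ways. Of 19 tested ligands, receptors, SMADs and inhibitors 4 were higher and 3 lower past the threshold. Over all tested genes 7.72% were called higher and 13% lower. The median difference of the 19 was 0.03. The receptor TGFBR2 fell from 9.16 ± 0.084 to 8.87 ± 0.019 (SD, n = 3), by 0.30 (limma adjusted p = 0.000947). The co-receptor TGFBR3 rose by 0.30 (adjusted p = 0.0112), but did not pass when replicate 1 of GFP (0.29) or of SATalpha (0.28) was removed. Inhibitors of the pathway were mixed. SMAD7, SKIL and BAMBI rose by 0.43, 0.55 and 0.26 (adjusted p = 0.000105, 0.000660 and 0.000570), with SMAD7 at 0.28 when its probe sets were averaged. SMURF1, a ubiquitin ligase that targets the receptors and SMADs, fell by 0.27 (adjusted p = 0.0147), a call that ended with GFP replicate 1 removed (-0.26) or probe sets averaged (-0.14). SMAD6 (-0.21, adjusted p = 0.102), SMURF2 (-0.08), SKI (0.08) and TGIF1 (0.03) did not pass. The 4 other SKI probe sets had larger differences, from 0.12 to 0.56, but SKI passed by gene under 0 of its 13 alternatives. LTBP2, a relative of the proteins that hold latent TGF-beta in the matrix, fell by 0.30 (adjusted p = 0.000947). SMAD7, SKIL, BAMBI, LTBP2 and TGFBR2 held whichever array was left out. The ligands TGFB1 (-0.14, adjusted p = 0.259) and TGFB2 (0.21, adjusted p = 0.110) did not pass. TGFB2 did pass as higher without GFP replicate 2 or SATalpha replicate 2, but its second probe set went the other way (-0.24).

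Epithelial genes are the counterpart of the mesenchymal ones in EMT. By limma 0 of 12 tested junction, keratin and regulator genes rose, with 1 higher at an unadjusted p under 0.05, and 4 fell. Over all tested genes 7.72% were called higher and 13% lower. The median difference of the 12 was -0.07. The keratins KRT18 and KRT7 both fell by 0.21 (limma adjusted p = 0.000675 and 0.00129), KRT8 by 0.13 (adjusted p = 0.0266) and the tight junction protein CLDN1 by 0.36 (adjusted p = 0.000903). The KRT8 call ended when GFP replicate 1 (-0.13) or 3 (-0.11) was removed, and likewise with replicate 1 (-0.15) or 2 (-0.10) of SATalpha. KRT8 also did not pass with its 8 probe sets averaged (-0.028, adjusted p = 0.834), and its 7 dimmer ones ran from -0.12 to 0.30. Averaged over probe sets CLDN1 differed by -0.20 (adjusted p = 0.0148). The 8 other tested genes did not pass and went both ways. CDH3 (0.23, limma adjusted p = 0.135), OCLN (0.06), PKP2 (0.06) and DSP (0.02) had positive differences. With its probe sets averaged CDH3 passed as higher (limma adjusted p = 0.0452), and its second probe set differed by 0.18. OVOL1 (-0.17), TJP1 (-0.11), JUP (-0.02) and CLDN4 (-0.01) had negative ones. The second probe sets of TJP1 (0.27) and PKP2 (-0.06) had the other sign. The 2 other CLDN4 probe sets differed by -0.01 and 0.26, and the second one of OCLN by 0.35. CDH1 (E-cadherin), EPCAM, ESRP1 and GRHL2 lay under the floor.

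**Figure D4:**
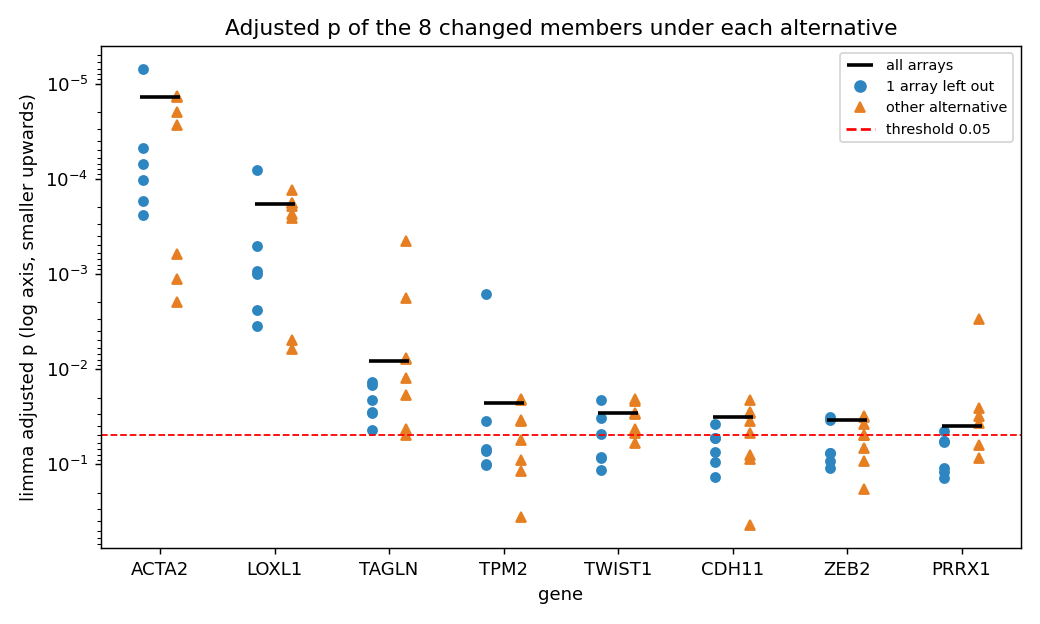
Limma adjusted p of each of the 8 changed members with all arrays (black bar), with 1 array left out (blue circles) and under the other alternatives (orange triangles), on a log axis with smaller values upwards; the dashed line is the threshold of 0.05. ACTA2, LOXL1 and TAGLN stay above the line throughout, while the other 5 cross it.

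The members differed in how firmly they stood. Over its alternatives the adjusted p of ACTA2 ran from 6.99e-06 to 0.00199, that of LOXL1 from 8.16e-05 to 0.00610 and that of TAGLN from 0.000450 to 0.0498. For the remaining 5 the largest was 0.116 for TWIST1, 0.141 for PRRX1, 0.183 for ZEB2, 0.359 for TPM2 and 0.441 for CDH11. The median SE over all tested genes was 0.06, close to the median size of the members' differences, 0.07.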

How the data were processed

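RNA from GFP and SATalpha cells was hybridised to Affymetrix 3′ expression arrays, 3 for each group. The deposited values were log2 levels that the authors had already normalized between arrays. MAS5 and RMA are both named in the submitters' processing notes, with no role or version, and which of them made the values is unknown. RMA compresses differences of dim transcripts. Detection calls were not used here. Of 49372 probe sets 79 were controls. The platform annotation gave 44988 of the rest 1 gene symbol, 1832 several and left 2473 unlisted, and 0 probe sets shared a member with another gene. Genes in the lowest 40% by mean level were not tested by gene, while probe sets were tested unfiltered.

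The groups were compared with limma 3.58.1 in R 4.3.3 (lmFit, eBayes with a mean-variance trend, Benjamini-Hochberg threshold 0.05). The scripts were tested on simulated data. Every member is named. Values on each array were set by rule for members past the threshold by gene or probe set and for CDH2, VIM and FN1, and further ones were added after their values were seen. From each other list up to 4 genes past the threshold were named by smallest p. TGFBR2, TGFBR3, TGFB1, TGFB2, SMAD6, SMURF1, SMURF2, SKI, TGIF1, SRF, MRTFA, MRTFB and, for its change of direction, ACTN1 were named beyond that rule after their values were seen. The epithelial genes CDH3, OCLN, PKP2, DSP, OVOL1, TJP1, JUP and CLDN4 were likewise named beyond it. The members and lists were chosen with earlier results of these data known. Promoters come from RefSeq (GRCh38.p14).

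Alternatives were no filter or a stricter one, quantile normalization, centring on array medians, averaging all probe sets of a gene, dropping probe sets whose ID ends in _x_at or _s_at, no variance trend, the replicate number as a block, and each array left out. There were 0 pairs of arrays with identical values. The number of arrays limits the precision.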

Additional observations from a re-analysis of the deposited data

How the results depend on the processing

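The directions of the 8 members called by gene were kept under each alternative that gave them a value, except that of TPM2, which was 0.073 when its probe sets were averaged. TPM1, not called at a difference of 0.0057, passed as lower once probe sets able to match several transcripts were dropped (-0.21). That setting also turned TPM4 to -0.093, which did not pass (limma adjusted p = 0.462). It turned the actin cross-linker ACTN1, called lower at -0.13, to 0.21, which passed as higher (adjusted p = 0.0298). ACTN1 was 0.015 when its probe sets were averaged and did not pass. With the replicate number as a block, 1 member was higher and 2 lower by gene and 6 and 4 by probe set, and calls over all genes and all probe sets fell to 1300 and 2328. Same-numbered arrays did not vary together: their deviations from the group means correlated at -0.0035, -0.24 and -0.29. For differently numbered arrays the values ran from -0.13 (GFP 1 with SATalpha 2) to 0.34 (GFP 3 with SATalpha 2). Whether the arrays pair in another order was not tested. Without the mean-variance trend 2 members were lower by gene, 2 probe sets were higher and 1 lower, and 1321 of all probe sets passed. With the lowest 60% of genes left out 1 member was higher, and with probe sets averaged 3 were lower. Leaving out 1 array gave 1 to 3 members higher and 2 to 5 lower, 5 to 12 probe sets higher and 3 to 10 lower, 1216 to 2520 genes and 1967 to 4325 probe sets. Over all genes the count was 1216 without GFP replicate 1 and 1396 without SATalpha replicate 1. With 5 arrays the tests have less power, and other causes of these changes were not tested.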
